A study of Mus musculus with 91 samples.

Results

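Bile acid synthesis in mouse liver was followed through 10 genes: Cyp7a1, Cyp8b1, Cyp27a1, Cyp7b1, Cyp39a1, Akr1d1, Slc27a5, Baat, Nr1h4 and Nr0b2. They were taken by gene symbol from the platform annotation, and all 10 were found among the 18193 genes measured. The 10 genes had 16 probe sets, and each gene was read from its brightest probe set, by the mean of the 91 arrays. All values are log2 levels after robust multi-array averaging (RMA), so a difference of 1 is a 2-fold change.

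The study profiled liver RNA on Affymetrix expression arrays, 1 array per liver, after exposure of mice to chemicals labelled carcinogenic or non-carcinogenic. It held 91 livers in 19 groups of 4 or 5, of which 49 livers came from 10 treated groups and 42 from 9 control groups. All mice were adult males on a C57BL/6J background, and the design text states that animals were assigned at random. Replicates were separate mice.

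The 10 treated groups were each set against the control that the labels assign. Phenobarbital, a barbiturate that activates the receptor CAR, was given at 0.05% (w/v) in drinking water for 28 or 56 days, against mice on water for the same time. Cyproterone acetate, a steroid antiandrogen, was given at 160 mg/kg, and 1,4-dichlorobenzene, a chlorinated solvent, at 600 mg/kg. Both were given daily by gavage for 28 days and shared 1 corn oil control group. CITCO, an agonist of human CAR, was injected intraperitoneally at 10 mg/kg daily for 28 days. It went to C57BL mice, set against the carboxymethylcellulose (CMC) cohort Co4, and to the strain C57BL/hCAR/hPXR, named for the human receptors CAR and PXR, set against CMC in that strain. Piperonyl butoxide, a pesticide synergist, was injected at 600 mg/kg (4 mice, against CMC cohort Co2). Wy-14643, an agonist of the fatty acid receptor PPARα, was given at 100 mg/kg by gavage (against Co1, 4 mice). Pioglitazone, a PPARγ agonist, was given at 100 mg/kg by gavage (against Co5, 4 mice), and methapyrilene, an antihistamine, at 1000 ppm in food (against Co3, 4 mice). These last 4 exposures also lasted 28 days. The titles of the 28-day phenobarbital livers end in "(2)", and what that marks is not given in the labels.

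Bile acids are made from cholesterol in hepatocytes. In the classic route, Cyp7a1 hydroxylates cholesterol in the first and rate-limiting step, and Cyp8b1 adds the hydroxyl group that leads to cholic acid. In the alternative route, Cyp27a1 oxidises the sterol side chain, and Cyp7b1 hydroxylates the resulting oxysterols. Cyp39a1 hydroxylates another oxysterol, one made largely in the brain. Akr1d1 reduces the steroid ring, and Slc27a5 and Baat activate bile acids and join them to taurine or glycine. Bile acids returning to the liver activate the receptor FXR, encoded by Nr1h4, which induces the corepressor SHP, encoded by Nr0b2; SHP restrains Cyp7a1 and Cyp8b1.

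Promoter sequence in the RefSeq table (GRCm38.p6, 250 bases before to 50 after an annotated start) was found for 5 of the 10 genes: Akr1d1, Cyp27a1, Cyp8b1, Nr0b2 and Nr1h4. The stretches below are the bases of those windows that lie before the gene's first annotated base. They are shown for Akr1d1, the gene that changed in the most comparisons, for Cyp8b1, and for Nr0b2, the feedback repressor. Each is written 5′ to 3′ on the gene's strand. Capitals mark matches, on either strand, to TCAAGG, a core bound by the nuclear receptor LRH-1, to AGGTCA, a nuclear receptor half-site, to CCAAT or to TATAAA.
Akr1d1, chr6:37529923-37529977, plus strand: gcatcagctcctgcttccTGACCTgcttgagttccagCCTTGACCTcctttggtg
Cyp8b1, chr9:121916306-121916555, minus strand: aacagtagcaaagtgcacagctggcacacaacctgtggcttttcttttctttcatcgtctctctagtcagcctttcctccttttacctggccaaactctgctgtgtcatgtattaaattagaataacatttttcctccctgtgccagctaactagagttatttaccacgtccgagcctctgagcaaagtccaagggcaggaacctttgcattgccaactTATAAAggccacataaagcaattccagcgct
Nr0b2, chr4:133553126-133553375, plus strand: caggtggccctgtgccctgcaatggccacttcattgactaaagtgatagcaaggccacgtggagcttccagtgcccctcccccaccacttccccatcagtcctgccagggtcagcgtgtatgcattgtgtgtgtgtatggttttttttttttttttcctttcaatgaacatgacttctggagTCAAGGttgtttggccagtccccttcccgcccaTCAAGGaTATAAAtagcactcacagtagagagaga
The Akr1d1 stretch held 2 matches to AGGTCA, of which the one further downstream overlapped a match to TCAAGG. The Nr0b2 stretch held 2 matches to TCAAGG and 1 to TATAAA, and the Cyp8b1 stretch held 1 match to TATAAA. Among all 32851 windows of 300 bases in the table, 14.4% held TCAAGG, 16.3% AGGTCA, 37.4% CCAAT and 13.6% TATAAA, so each match alone is common.

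The tissue label held in every group: the mean of 8 hepatocyte markers lay between 13.70 and 14.40 in every liver, and that of 5 measured cholangiocyte markers between 5.14 and 6.18. Xist was at most 5.00 and Eif2s3y, a Y-linked gene, at least 8.81 in every liver. Markers of exposure went against 2 labels. Livers labelled pioglitazone had Cyp2b10, the classic CAR target, 6.06 log2 units above their control (limma, adjusted p = 1.17e-15), while the PPARγ targets Fabp4 (-0.33), Cidec (-0.60) and Cd36 (-0.42) did not pass. Livers labelled methapyrilene had Fabp4 3.37, Cidec 2.55 and Cd36 1.76 units above their control (adjusted p = 0.000127, 0.000348 and 0.00233), with Cyp2b10 at -0.36. These livers ranged from 7.44 to 12.54 in Fabp4 and from 4.17 to 8.25 in Cidec. Their lowest values did not exceed the Co3 livers (6.56 to 7.49 and 4.28 to 5.06). Fabp4 and Cd36 were not particular to this group, with means of 12.66 and 11.85 after Wy-14643 against 7.52 and 9.16 in Co1. The pioglitazone and methapyrilene groups are therefore named by their labels below, and no direction is drawn from either. Livers given piperonyl butoxide ranged from 6.07 to 11.89 in Cyp2b10 and from 5.35 to 10.37 in Cyp1a1, another marker of exposure. The Co2 livers ranged from 4.98 to 5.88 and from 4.56 to 6.12. These markers thus differed widely between the livers given piperonyl butoxide, some of which lay near or within the control range.

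Across the 10 treated-against-control comparisons, 5 of the 100 gene values passed a limma test at an adjusted p below 0.05, with 2 rising and 3 falling. The 5 were Akr1d1 after 28 days of phenobarbital and after cyproterone acetate, and Cyp7b1, Cyp39a1 and Baat after Wy-14643. Cyp7a1, Cyp8b1, Cyp27a1, Slc27a5, Nr1h4 and Nr0b2 passed in none of the 10. In 7 of the 10 comparisons none of these 10 genes passed.

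Read against all 18193 genes, these counts were as follows. After Wy-14643, 3 of 10 passed, where 10.6% of all genes did. After cyproterone acetate 1 of 10 passed against 5.32%, and after 28 days of phenobarbital 1 of 10 against 0.967%. None of the 10 passed after 1,4-dichlorobenzene (3.83% of all genes; 2 of 10 at an unadjusted p below 0.05), piperonyl butoxide (0.808%; 1 of 10), 56 days of phenobarbital (0.566%; 0 of 10) or CITCO in hCAR/hPXR mice (0.0989%; 1 of 10). None passed after CITCO in C57BL mice (0.0055%; 1 of 10), in livers labelled pioglitazone (0.022%; 0 of 10) or in livers labelled methapyrilene (0.181%; 1 of 10). Several of these shares moved by over 1.5 times with 1 liver left out. The share after Wy-14643 was 6.72% without replicate 2 of Co1 and 6.55% without treated replicate 5. After cyproterone acetate it was 3.48% without replicate 2 of corn oil and 3.31% without treated replicate 2, and after 1,4-dichlorobenzene 2.17% without treated replicate 1. After 28 days of phenobarbital it was 0.616%, 0.484% and 0.621% without water replicate 1, 2 or 3, and 0.594% and 0.533% without treated replicate 1 or 4. In these 4 comparisons every such share was lower than with all livers. After piperonyl butoxide it was 1.21%, 1.49% and 0.522% without replicate 1, 2 or 3 of Co2, and 1.32% and 0.39% without treated replicate 2 or 3. In the comparisons where at most 33 genes passed, leaving out single livers gave between 0 and 39 genes.

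The median change over the 10 genes was -0.23 after Wy-14643, beside -0.04 over all genes, and 0.17 after cyproterone acetate, beside 0.02 over all genes. All 10 values were above 0 after cyproterone acetate, although 9 of the 10 did not pass.

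**Figure D1:**
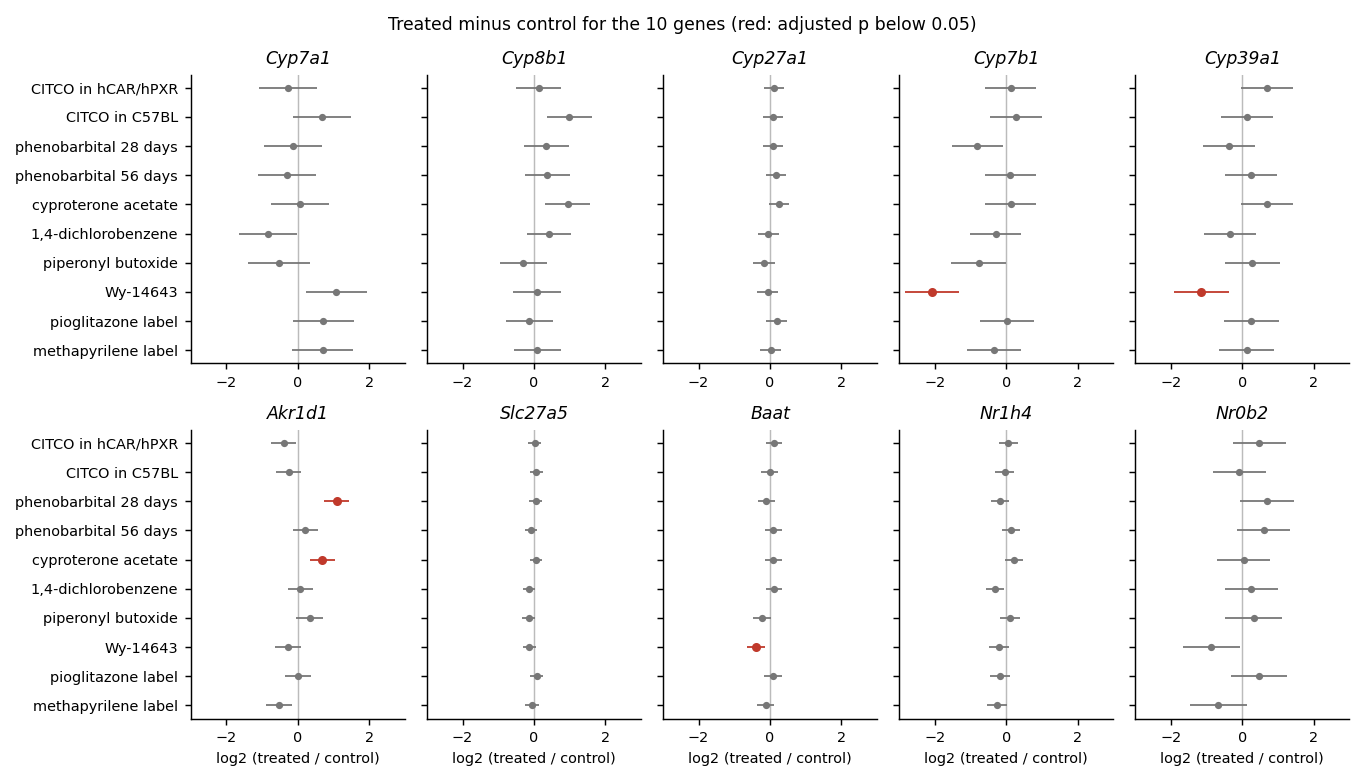
Log2 difference of treated minus control for each of the 10 genes (panels) in the 10 comparisons (rows), as the fitted value with its 95% confidence interval; red marks an adjusted p below 0.05. The 5 red points are Akr1d1 in 2 comparisons and Cyp7b1, Cyp39a1 and Baat after Wy-14643; intervals are widest for Cyp7a1 and narrowest for Slc27a5.

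Cyp7a1, the gatekeeper of the classic route, passed in no treated group, and its scatter between mice was the widest of the 10 genes. Its standard deviation pooled over groups was 0.67 log2 units, and single livers ranged from 8.02 to 12.12. After Wy-14643 the 5 livers read 9.18, 10.47, 10.31, 10.31 and 10.27, against 8.69, 9.27, 9.66 and 8.47 in Co1. All but the first treated liver lay above every control, and the groups overlapped through that liver. The difference was 1.08 ± 0.43 (SE), with an adjusted p of 0.0941; without the first treated liver it was 1.31 (adjusted p = 0.0426), and in a fit of these groups alone the adjusted p was 0.0447. It passed in no other of the 9 settings and 9 left-out livers: without replicate 4 of Co1 it was 0.90 (adjusted p = 0.226), and against the mean of the 5 CMC cohorts 0.50 (adjusted p = 0.334). After 1,4-dichlorobenzene the livers read 9.63, 8.02, 8.91, 10.87 and 9.79, against 10.06, 10.90, 10.09, 10.29 and 10.00 on corn oil. In all, 4 of these livers lay below every control and the remaining liver close to the highest control, a difference of -0.82 ± 0.41 that did not pass (adjusted p = 0.325).

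Among untreated mice, Cyp7a1 was higher in hCAR/hPXR than in C57BL livers. The hCAR/hPXR controls read 11.41, 10.64, 11.53, 11.63 and 12.05, against 8.96, 9.08, 9.82, 8.35 and 10.96 in Co4. The groups overlapped only through the last Co4 liver. The difference was 2.01 ± 0.41, a 4.04-fold higher level (adjusted p = 0.0082), and Cyp7a1 was the only 1 of the 10 genes to pass in a comparison where 0.126% of all genes did and 0.0715% were higher. It no longer passed without replicate 4 of Co4 (1.74, adjusted p = 0.0535), without replicate 5 of the hCAR/hPXR controls (1.86, adjusted p = 0.0522), on the mean of its 2 probe sets (1.65, adjusted p = 0.0538) or in a fit of these groups alone (adjusted p = 0.141). The second probe set of Cyp7a1 gave 1.29 and did not pass (limma, adjusted p = 0.309 when every probe set was tested). The transcripts of the mouse receptors themselves were lower in the hCAR/hPXR controls, Nr1i3 (CAR) by -3.47 and Nr1i2 (PXR) by -3.48. Strain and cohort cannot be told apart here, and the cohorts of C57BL mice on CMC spanned 9.02 to 10.74 for this gene. CITCO moved Cyp7a1 by -0.28 ± 0.41 in hCAR/hPXR and by 0.68 ± 0.41 in C57BL mice; the test of the difference between the responses gave -0.96 ± 0.58 (adjusted p = 1.00), where 0.0055% of all genes passed. None of the 10 genes passed that test or had an unadjusted p below 0.05 in it.

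Cyp8b1, which sets the share of cholic acid, came closest to passing after cyproterone acetate. The treated livers read 12.15, 11.81, 12.77, 11.95 and 12.20, against 11.88, 10.56, 11.11, 11.02 and 11.59 on corn oil. Only the first control liver reached into the treated range. The difference of 0.95 ± 0.31 had an adjusted p of 0.0617; without the first corn oil liver it was 1.11 (adjusted p = 0.0302), and with only the 9679 genes whose mean was at least 6 the adjusted p was 0.0401. It passed in no other of the 8 settings and 10 left-out livers, the smallest being 0.78 without replicate 2 of corn oil (adjusted p = 0.218). CITCO in C57BL mice gave a difference of the same size, 0.99 ± 0.31 (11.58 ± 0.28 SD against 10.59 ± 0.79, n = 5 each), which did not pass (adjusted p = 0.809). The control mean in that comparison was the lowest of the 19 groups. Co4 and the hCAR/hPXR controls, which had the 2 lowest Cyp8b1 means (10.59 and 11.05), also had the 2 highest means of 21 measured acute phase genes (12.87 and 13.05). In the livers given cyproterone acetate 5 of these 21 genes rose, where 2.62% of all genes did. The list mean of these livers ranged from 11.20 to 13.21, against 10.79 to 11.95 on corn oil. The part of the acute phase genes in the Cyp8b1 values was not tested.

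**Figure D2:**
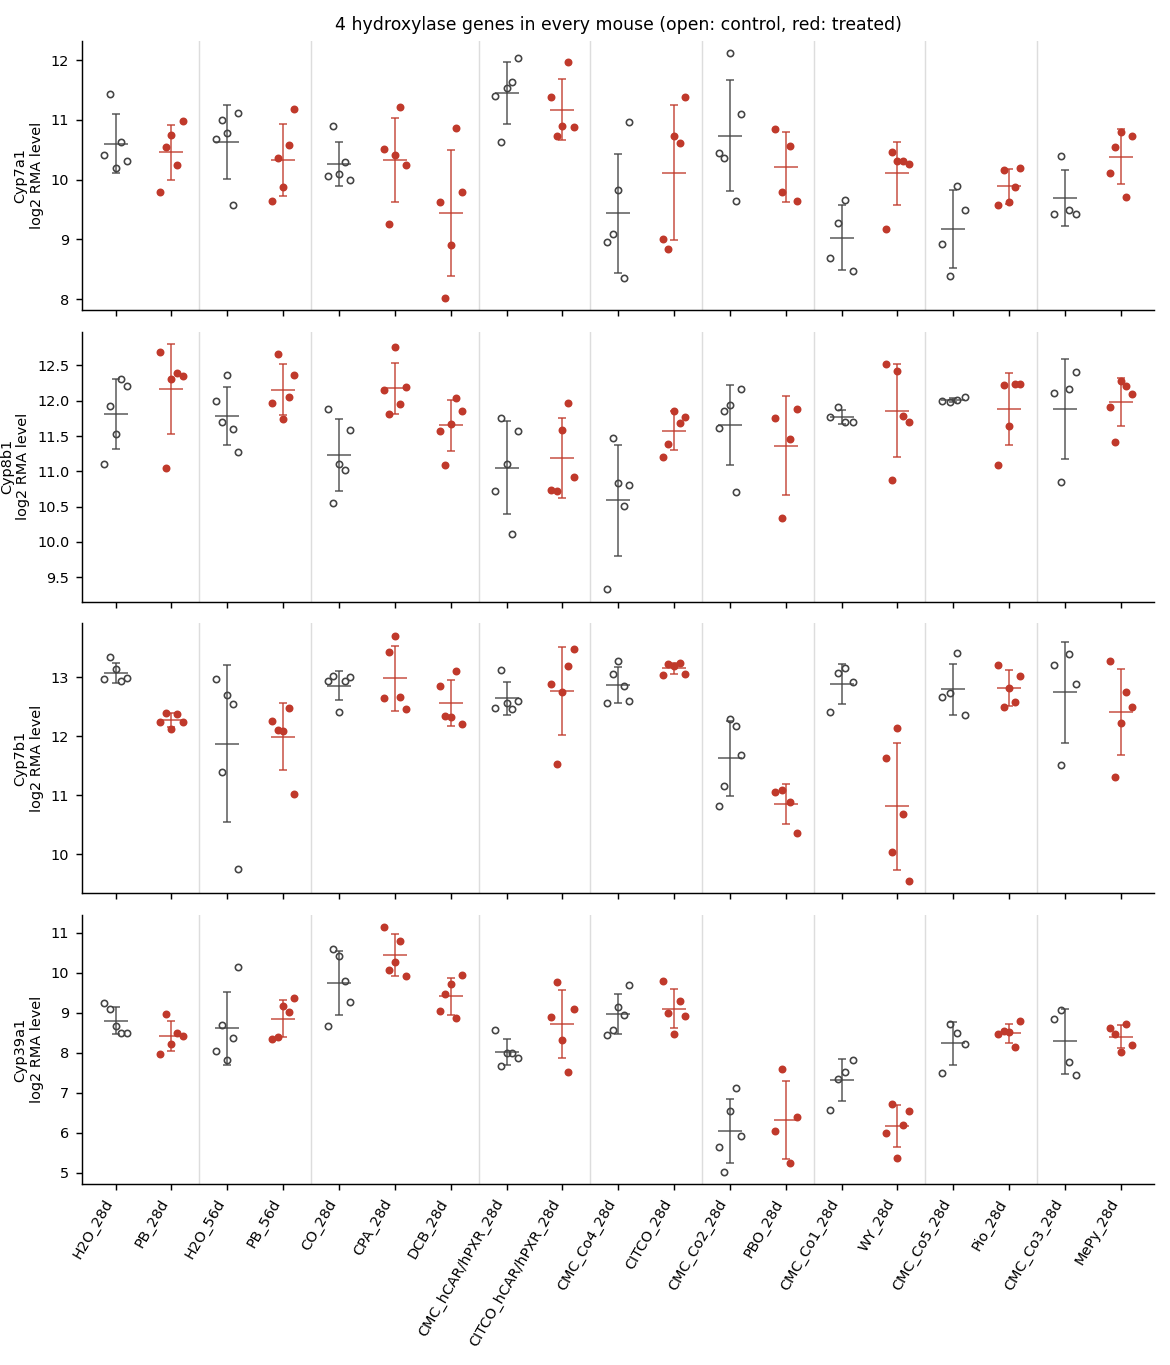
Log2 RMA level of Cyp7a1, Cyp8b1, Cyp7b1 and Cyp39a1 in each of the 91 livers, by group; open circles are control livers, filled red circles treated livers, and bars the mean ± SD. Each control stands left of its treated groups, with grey lines between sets. Cyp7a1 is highest in the hCAR/hPXR groups (means 11.45 and 11.17), Cyp7b1 is lowest after Wy-14643 (10.81), and Cyp39a1 means lie between 6.04 and 7.31 in Co2, Co1 and the groups set against them.

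Cyp7b1, the oxysterol hydroxylase of the alternative route, fell more than any other of the 10 genes. After Wy-14643 it read 11.63, 10.03, 12.14, 10.68 and 9.55, against 12.40, 13.07, 13.16 and 12.91 in Co1. Every treated liver lay below every control, although treated livers differed among themselves by over 2 units. The difference was -2.08 ± 0.39, a 4.22-fold lower level (adjusted p = 6.71e-05), where 5.09% of all genes fell. The second probe set of the gene gave -2.27 (adjusted p = 2e-05 when every probe set was tested). The call held in all 9 fits that left out 1 liver and under the 9 other settings tried.

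The fall of Cyp7b1 came with a fall of other genes that are higher in male than in female liver, a list whose sex bias depends on the pattern of growth hormone. After Wy-14643, 10.6% of all genes passed in either direction and 5.09% fell. Of 10 measured male-biased genes other than Cyp7b1, 7 fell and none rose, with a median change of -1.16. The mean over the list was 10.61, 9.69, 10.78, 9.73 and 9.30 in the treated livers and between 11.84 and 12.00 in Co1. Ordered by their list mean, the 5 treated livers stood in the same order as by Cyp7b1. Of 9 measured female-biased genes 3 rose, with list means of 5.92 to 6.35 against 4.83 to 5.09. Of 6 Kupffer cell markers 3 rose (7.12 to 8.22 against 6.52 to 7.04), and of 21 acute phase genes 4 rose (10.14 to 13.08 against 10.18 to 10.75). None of the 5 measured cholangiocyte markers and 1 of 6 endothelial markers passed, and 3 of 10 pericentral genes fell. In whole liver, fewer cells of a type and less RNA per cell cannot be told apart. What these changes contributed to the Cyp7b1 value was not tested.

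After 28 days of phenobarbital Cyp7b1 read 12.23, 12.40, 12.12, 12.37 and 12.24, against 12.97, 13.34, 13.14, 12.93 and 12.99 on water. The 2 groups did not overlap, and each was tight. In the fit of all 19 groups the difference of -0.80 ± 0.36 did not pass (adjusted p = 0.45), whereas in a fit of these 2 groups alone it did (adjusted p = 6.93e-05). Akr1d1 was the only other 1 of the 10 genes whose groups did not overlap here, where 3.85% of all genes had groups that did not overlap. At 56 days the difference was 0.12 ± 0.36. One water control at that time stood apart: its Cyp7b1 was 9.75 against 11.40 to 12.97 in the other water livers, its male-biased list mean was 8.62, its female-biased list mean 7.83, and its Cyp39a1 10.14 and Akr1d1 11.98 were the highest of its group. Without it the difference at 56 days was -0.41 (adjusted p = 0.972).

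Cyp39a1, the hydroxylase of the brain-derived oxysterol, fell after Wy-14643. It read 5.98, 6.71, 5.37, 6.20 and 6.55, against 6.58, 7.34, 7.51 and 7.82 in Co1. Only the lowest control liver reached into the treated range, and the difference was -1.15 ± 0.39, a 2.22-fold lower level (adjusted p = 0.0406). The call rested on few livers. It was lost without replicate 2, 3 or 4 of Co1 (-1.14, -1.08 and -0.98, adjusted p = 0.0892, 0.0927 and 0.127) and without replicate 1, 3 or 4 of the treated livers (-1.10, -0.95 and -1.16, adjusted p = 0.0621, 0.117 and 0.0605). Centring the arrays on their medians moved its adjusted p to 0.0507. After cyproterone acetate Cyp39a1 was 0.70 ± 0.36 above corn oil and after 1,4-dichlorobenzene -0.34 ± 0.36 from it; neither passed (adjusted p = 0.306 and 0.761).

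Cyp27a1, the mitochondrial side chain oxidase, moved least among the hydroxylases. Its 10 differences ran from -0.17 after piperonyl butoxide to 0.24 after cyproterone acetate, with standard errors of about 0.14, and none had an unadjusted p below 0.05. Group means lay between 10.93 (piperonyl butoxide) and 12.15 (cyproterone acetate).

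Akr1d1, the reductase that sets the bent ring shape of bile acids, was the only gene of the 10 to rise. After 28 days of phenobarbital it read 11.80, 11.84, 11.44, 11.87 and 11.40, against 10.63, 10.07, 10.62, 10.90 and 10.66 on water. The groups were separated by a clear gap, and the difference was 1.09 ± 0.18, a 2.13-fold rise (adjusted p = 1.38e-05), where 0.572% of all genes rose. It passed under all 8 other settings and without each of the 10 livers in turn. The water controls at 28 days had the lowest Akr1d1 mean of the 19 groups (10.57 ± 0.31), and the phenobarbital mean (11.67 ± 0.23) lay among the means of other controls, which reached 11.86 in Co2. Of the 9 female-biased genes 3 rose in these livers as well and of the 10 male-biased genes none passed, and their part in the Akr1d1 value was not tested.

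At 56 days the phenobarbital livers read 11.22, 11.61, 11.39, 11.60 and 11.44, against 10.73, 11.18, 11.11, 11.21 and 11.98 on water. The water livers spanned the whole treated range, through the last one, the liver with low male-biased genes. The difference was 0.21 ± 0.18 (adjusted p = 0.948), and 0.39 without that liver (adjusted p = 0.72). The response at 56 days was -0.89 ± 0.25 from that at 28 days, which did not pass over all genes (adjusted p = 0.385). In that test of the difference none of the 18193 genes passed (0% called); 1 of the 10 genes, Akr1d1, had an unadjusted p below 0.05.

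After cyproterone acetate Akr1d1 read 12.10, 11.95, 11.67, 12.03 and 11.94, against 11.10, 10.95, 11.32, 11.29 and 11.65 on corn oil. The lowest treated liver lay just above the highest control, and Akr1d1 was the only 1 of the 10 genes without overlap, where 4.87% of all genes had such groups. The rise was 0.68 ± 0.18, or 1.60-fold (adjusted p = 0.0102), where 2.62% of all genes rose; without replicate 2 of the corn oil group it was 0.60 (adjusted p = 0.0506). In the same livers 5.32% of all genes passed in either direction. Of 15 clock genes 2 rose and 6 fell, and of 21 acute phase genes 5 rose. Of 8 hepatocyte markers 1 fell, as did 1 of 6 stellate cell markers. The part of these lists in the rise of Akr1d1 was not tested. The livers given 1,4-dichlorobenzene read 11.91, 10.60, 11.28, 11.45 and 11.37, a difference of 0.06 ± 0.18 from the same controls. Set directly against each other, cyproterone acetate was 0.62 ± 0.18 above 1,4-dichlorobenzene (adjusted p = 0.0244). That call was lost without replicate 2 of 1,4-dichlorobenzene (0.44, adjusted p = 0.201), replicate 1 or 4 of cyproterone acetate (0.58 and 0.59, adjusted p = 0.0697 and 0.0586), and in a fit of these 2 groups alone (adjusted p = 0.19).

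The groups also did not overlap after piperonyl butoxide, with treated livers at 12.22, 12.12, 12.22 and 12.20 against 11.82, 11.89, 11.84, 11.82 and 11.92 in Co2. This difference was small and very regular, 0.33 ± 0.19, and did not pass (adjusted p = 0.472). Akr1d1 was the only 1 of the 10 whose groups did not overlap there, where 2.51% of all genes had such groups.

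The 2 probe sets of Akr1d1 passed in the same comparisons, but their group means followed each other only weakly. Statements on the order of Akr1d1 group means hold for the brightest probe set, the first, only. Within groups they correlated at 0.40 and over the 19 group means at 0.19, as descriptions over the same arrays. Tested among all probe sets, the second one passed where the first did, with 1.16 after 28 days of phenobarbital (adjusted p = 0.00234), 1.19 after cyproterone acetate (adjusted p = 0.000502) and 0.81 for cyproterone acetate over 1,4-dichlorobenzene (adjusted p = 0.0356). It gave 0.87 after piperonyl butoxide (adjusted p = 0.0849) and 0.70 in livers labelled pioglitazone (adjusted p = 0.407), where the first gave 0.33 and 0.00.

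**Figure D3:**
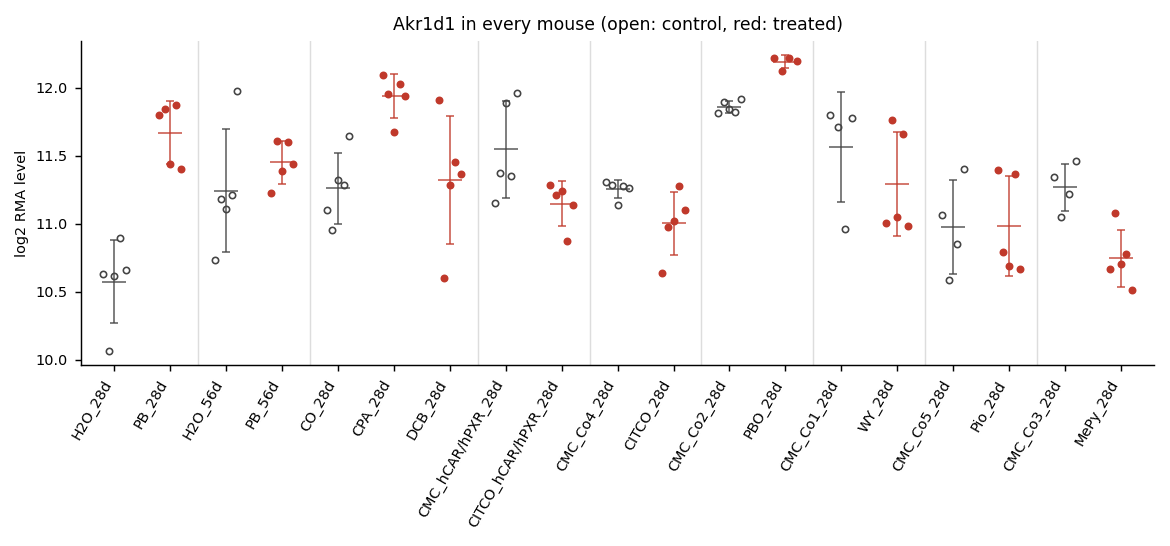
Log2 RMA level of Akr1d1 in each of the 91 livers, by group, with the mean ± SD; open circles are control livers and filled red circles treated livers, and grey lines separate each control with its treated groups. The phenobarbital livers at 28 days (11.40 to 11.87) lie above the water livers (10.07 to 10.90), which have the lowest mean of the 19 groups, and the cyproterone acetate livers (11.67 to 12.10) above the corn oil livers (10.95 to 11.65).

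Of the conjugating enzymes, Baat, which joins activated bile acids to taurine or glycine, fell slightly after Wy-14643. It read 10.89, 10.28, 10.89, 10.66 and 10.43, against 10.94, 11.00, 11.06 and 11.08 in Co1. All treated livers lay below all controls, 2 of them by very little, and Cyp7b1 was the only other 1 of the 10 genes without overlap here, where 9.17% of all genes had groups that did not overlap. The difference was -0.39 ± 0.12, a 1.31-fold lower level (adjusted p = 0.0283). It was lost without replicate 2, 3 or 4 of Co1 (-0.40, -0.38 and -0.37, adjusted p = 0.0581, 0.0647 and 0.0693) and without replicate 2 or 5 of the treated livers (-0.30 and -0.34, adjusted p = 0.125 and 0.101). It was also lost on the mean of the gene's 2 probe sets (-0.36, adjusted p = 0.0636) and in a fit of these groups alone (adjusted p = 0.126). Slc27a5, the ligase that activates bile acids before conjugation, was the steadiest of the 10 genes. Its pooled standard deviation was 0.14, its 10 differences ran from -0.14 to 0.08, and no unadjusted p was below 0.05.

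Nr1h4, the bile acid receptor FXR, passed in no comparison with a control. After cyproterone acetate it was 0.22 ± 0.13 above corn oil and after 1,4-dichlorobenzene -0.31 ± 0.13 from it (adjusted p = 0.384 and 0.19). Set directly against each other, the livers read 10.62, 10.63, 10.71, 10.36 and 10.79 after cyproterone acetate and 10.41, 9.89, 10.01, 10.10 and 10.04 after 1,4-dichlorobenzene. All but the first 1,4-dichlorobenzene liver lay below every cyproterone acetate liver. The difference of 0.53 ± 0.13, or 1.44-fold, passed (adjusted p = 0.00525), so that with Akr1d1 2 of the 10 genes were higher after cyproterone acetate, where 4.11% of all genes passed and 1.74% were higher. The Nr1h4 call held without each of the 10 livers in turn and was lost in a fit of the 2 groups alone (adjusted p = 0.0674). The 1,4-dichlorobenzene group had the lowest Nr1h4 mean of the 19 groups, 10.09 ± 0.19.

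Nr0b2, the repressor SHP, varied nearly as much between mice as Cyp7a1, with a pooled standard deviation of 0.61. After Wy-14643 it read 10.38, 8.29, 9.22, 9.50 and 8.20, against 10.34, 9.97, 9.98 and 9.65 in Co1. Of the treated livers 4 lay below all controls and the first above them all. The difference was -0.87 ± 0.40 (adjusted p = 0.152), and -1.18 without that first liver (adjusted p = 0.0418). It passed in none of the 9 settings and without no other liver, the weakest being -0.64 without treated replicate 5 (adjusted p = 0.394). The first treated liver, with the highest Nr0b2, also had the lowest Cyp7a1 of its group. The others did not continue that order: the fifth, with the lowest Nr0b2, had the lowest Cyp7a1 of the rest (10.27). Within groups over the 91 livers, Cyp7a1 with Nr0b2 was not among the 6 of 45 pairs of genes that passed. After phenobarbital Nr0b2 was 0.69 ± 0.37 above water at 28 days and 0.60 ± 0.37 at 56 days, neither of which passed (adjusted p = 0.591 and 0.859).

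Control cohorts that received the same vehicle differed from each other in most of these genes. The 5 CMC cohorts Co1 to Co5 held 22 C57BL mice at 28 days, and 8 of the 10 genes passed a limma F test between them, where 33.2% of all genes did. Nr1h4 (adjusted p = 0.17) and Nr0b2 (adjusted p = 0.433) did not pass. Cyp39a1 had the widest span. Its mean was 6.04 ± 0.81 in Co2, 7.31 ± 0.53 in Co1, 8.24 ± 0.54 in Co5, 8.28 ± 0.80 in Co3 and 8.96 ± 0.50 in Co4, a 7.55-fold range (adjusted p = 2.83e-09). That exceeds the change of this gene in any treated group. Cyp7a1 ran from 9.02 in Co1 to 10.74 in Co2, 3.28-fold (adjusted p = 0.00464), and Cyp8b1 from 10.59 in Co4 to 12.01 in Co5, 2.68-fold (adjusted p = 0.00129). Cyp7b1 was lowest in Co2 (11.62) and between 12.75 and 12.88 in the other cohorts.

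The piperonyl butoxide group, whose Cyp39a1 mean was 6.32, stood close to its own control Co2 at 6.04 and far from the other cohorts, while Wy-14643 at 6.16 lay below its control Co1 at 7.31. Set against the mean of the 5 cohorts in place of its own cohort, piperonyl butoxide gave -1.45 for Cyp39a1 (adjusted p = 0.00019), where its own control gave 0.28 ± 0.39. With that common control, 6 of the 10 genes passed for piperonyl butoxide, where 26.6% of all genes did, and 3 for CITCO in C57BL mice, where 10.4% did; against their own cohorts none had passed. The compounds set against Co2 and Co4 were injected, those set against Co1 and Co5 were given by gavage, and that set against Co3 was given in food. The labels do not state how the cohorts themselves were dosed, and cohort and any such difference in dosing cannot be told apart.

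**Figure D4:**
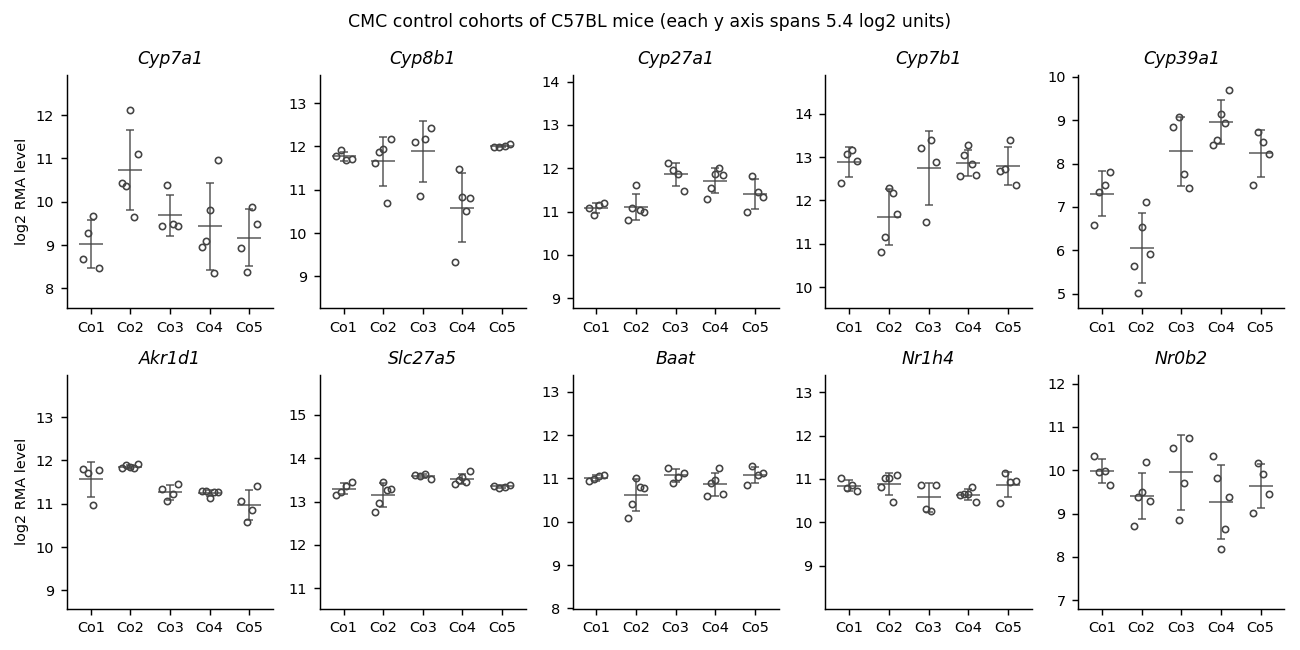
Log2 RMA level of the 10 genes in each of the 22 C57BL mice of the CMC cohorts Co1 to Co5, with the mean ± SD; every vertical axis spans 5.4 log2 units. Cyp39a1 means run from 6.04 in Co2 to 8.96 in Co4. Slc27a5 and Nr1h4 look almost level on this axis. Slc27a5 still passed the limma F test (13.15 in Co2 to 13.60 in Co3, adjusted p = 0.000205), and Nr1h4 did not.

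With the 19 groups ordered by their means, neighbouring means mostly lay within the scatter between single mice. Steps between ordered means are small by construction, so they do not test whether groups differ. For Cyp7a1, Cyp8b1, Akr1d1 and Nr0b2, none of the 18 steps between neighbouring group means exceeded the pooled standard deviation. For Cyp39a1, 3 of 18 did, with the largest step of 0.99 between Co1 and the piperonyl butoxide group; Cyp7b1, Cyp27a1, Slc27a5, Baat and Nr1h4 had 1 each. The highest and lowest means were 11.45 (hCAR/hPXR on CMC) and 9.02 (Co1) for Cyp7a1, 12.17 (cyproterone acetate) and 10.59 (Co4) for Cyp8b1, and 13.15 (CITCO in C57BL) and 10.81 (Wy-14643) for Cyp7b1. For Akr1d1 they were 12.19 (piperonyl butoxide) and 10.57 (water, 28 days).

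Among 3050 genes whose group means varied (SD of at least 0.3), those most like Cyp7b1 over the 19 group means were Hao1 (r = 0.88), Cela1 (0.87) and Nat8 (0.84). Those most like Cyp8b1 were Rnf125 (0.82), Insig2 (0.80) and Fam89a (0.76), and those most like Cyp7a1 were Ptgis (0.77), Lyz1 and Evl (0.75 each). These are descriptions of points that share arrays and cohorts.

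Within groups, mice with high Cyp8b1 tended to have low Cyp39a1. Over the 91 livers, each taken as its deviation from its group mean, the pair had Pearson's r = -0.54 and Spearman's rho = -0.53 (permutation within groups, p = 1e-05, the smallest that 100000 permutations give; adjusted p = 0.000225 over 45 pairs). Without the 2 livers farthest from the median of Cyp8b1, r was -0.59. It was -0.58 in the 49 treated and -0.49 in the 42 control livers (adjusted p = 0.00945 and 0.0403, permutation). The other pair at the same level was Cyp27a1 with Slc27a5 (r = 0.56, rho = 0.50, permutation adjusted p = 0.000225), at 0.57 in treated and 0.56 in control livers. In all, 6 of the 45 pairs passed and 5 of them were positive. The other 4 were Cyp7b1 with Baat (r = 0.39), Cyp8b1 with Baat (0.35), Baat with Nr1h4 (0.34) and Cyp7b1 with Cyp8b1 (0.31), the last of which did not pass by rho (adjusted p = 0.128, permutation). Cyp7a1, Akr1d1 and Nr0b2 were in none of the 6 pairs.

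**Figure D5:**
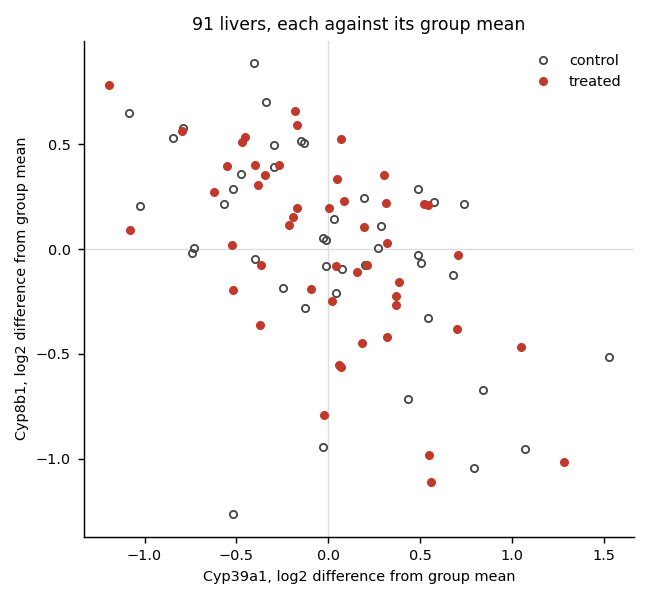
Deviation from the group mean of Cyp8b1 (vertical) against that of Cyp39a1 (horizontal), in log2 units, for each of the 91 livers; open circles are control livers and filled red circles treated livers. Livers low in Cyp8b1 tend to be high in Cyp39a1, with r = -0.58 in treated and -0.49 in control livers.

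Deviations of single genes also followed other liver programmes, in 50 pairs of a gene with a list mean that were added after the values were seen. Cyp7b1 followed the male-biased genes (r = 0.85, rho = 0.76, permutation adjusted p = 0.0005; 0.89 in treated and 0.83 in control livers) and ran against the female-biased genes (r = -0.57, rho = -0.42, adjusted p = 0.00262, permutation). Cyp39a1 ran against the male-biased genes (r = -0.46, rho = -0.39, adjusted p = 0.00262, permutation). Cyp8b1 ran against the acute phase genes (r = -0.40, rho = -0.34, adjusted p = 0.00262, permutation), and Slc27a5 followed the clock and clock output genes (r = 0.44, rho = 0.39, adjusted p = 0.00325, permutation). Livers of all groups contributed to these values, with group means removed.

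Other genes of the pathway were read from 4 lists: transporters, cholesterol supply, other enzymes and regulators. Of 14 bile acid transporters, 3 rose and none fell after phenobarbital at 28 days, where 0.967% of all genes passed, and likewise at 56 days, where 0.566% did, although not all were the same genes. Abcc4, an efflux pump of the sinusoidal membrane, rose by 3.07 at 28 and by 3.49 at 56 days, and Abcc3, its relative, by 1.07 and 0.86. Slco1a4, an uptake carrier, passed at 28 days (1.45), and Abcc2, the canalicular conjugate pump, at 56 days (0.54). After 1,4-dichlorobenzene 2 of 14 rose, Abcc4 (4.68) and Abcc3 (0.80), beside 3.83% of all genes that passed, and after piperonyl butoxide 1 of 14, Abcc3 (1.03), beside 0.808%. After cyproterone acetate none of 14 passed by limma, beside 5.32% of all genes, and 4 of 14 had an unadjusted p below 0.05. Between cyproterone acetate and 1,4-dichlorobenzene 5 of 14 passed, beside 4.11% of all genes, with 3 lower and 2 higher after cyproterone acetate. Those of largest change were Abcc4 (-4.89), the uptake carrier Slco1a4 (1.27), the sterol pump subunit Abcg5 (-0.79) and Slc10a1, the main bile salt uptake carrier (0.59).

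After Wy-14643, where 10.6% of all genes passed, 3 of 14 transporters rose and 3 fell. The uptake carrier Slco1a1, itself among the male-biased genes, fell by 4.42. Abcc4 rose by 2.00, Abcg5 by 0.67 and Abcc3 by 0.60. Of 6 measured genes of cholesterol supply (10 listed), 3 rose after Wy-14643: Lss (0.75), Idi1 (0.72) and Hmgcs1 (0.57). After 1,4-dichlorobenzene, where 3.83% of all genes passed, 2 of these 6 fell, Sqle (-0.91) and Srebf2 (-0.39).

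Among 13 measured other enzymes of bile acid synthesis (14 listed), 2 fell after cyproterone acetate, where 5.32% of all genes passed, Abcd3 (-0.48) and Slc27a2 (-0.40), both of peroxisomal side chain handling. After 1,4-dichlorobenzene (3.83% of all genes) Slc27a2 (-0.42) and Scp2 (-0.33) fell and Fdx1, the electron donor of mitochondrial hydroxylases, rose (0.35). After Wy-14643 (10.6% of all genes) Cyp2c70, which makes muricholic acids in mice, fell by 0.89 and Akr1c6 by 0.48, and Acot8 rose by 0.48. Of 14 measured regulators (15 listed), Ppara (-1.14) and Hnf4a (-0.47) fell after cyproterone acetate, and Ppara (-0.67), Rxra (-0.63) and Hnf4a (-0.54) after 1,4-dichlorobenzene. Ppargc1a, a coactivator, was the only 1 to rise after Wy-14643 (1.01). Both corn oil comparisons share their controls.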

How the data were processed

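Liver RNA of 91 mice was labelled and hybridised to Affymetrix mouse arrays, 1 array per mouse. The authors deposited 1 log2 value per probe set and array, made by RMA (background correction, quantile normalization and summarisation over probes), per the submitters' processing notes; no software version is named in the labels or the files. RMA shares 1 distribution across arrays, so values show change relative to the other genes. Arrays carry no read depth, and their number limits the precision.

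Of 45037 probe sets, 34945 carried 1 gene symbol in the platform annotation, 932 several and 9160 none. The brightest single-symbol probe set per gene gave 18193 genes. Each was fitted with limma (version 3.58.1, R 4.3.3): 1 mean per group over all 19 groups, 72 residual degrees of freedom, empirical Bayes with a mean-variance trend, two-sided, with Benjamini-Hochberg adjustment over all genes and a threshold of 0.05. All differences are on the log2 scale with SE from this fit; values after ± beside group means are SD. The fits were tested on simulated data. Correlations used deviations from group means and 100000 permutations within groups.

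Alternatives were a fit of the compared groups alone, no trend, a filter on dim genes, the mean of a gene's probe sets, every probe set tested, re-centred or re-quantiled arrays, the replicate number as a block, 1 liver left out at a time, and the mean of the 5 CMC cohorts as control. The members and the gene lists were chosen with earlier results of these data known. The text names all 10 members and, per list and comparison, up to 4 genes that passed with the largest change. P-values measure the spread between these mice only.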

Additional observations from a re-analysis of the deposited data

Results flagged for a closer look

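In 15 of 190 sets of 1 gene in 1 group, the highest or lowest liver stood apart from the rest of its group by Dixon's gap criterion, which by chance marks about 1 in 20 sets of mice. For Cyp7a1, replicate 2 of CMC cohort Co3 was high at 10.39 (others 9.43 to 9.49), replicate 4 of the 56-day water group was low at 9.57 (others 10.69 to 11.12), and replicate 1 of Wy-14643 was low at 9.18 (others 10.27 to 10.47). For Cyp7b1, replicate 2 of the hCAR/hPXR controls was high at 13.12 (others 12.46 to 12.59), replicate 3 of corn oil was low at 12.41 (others 12.93 to 13.01), and replicate 5 of phenobarbital at 56 days was low at 11.03 (others 12.09 to 12.47). The same phenobarbital liver was low in Cyp27a1 at 11.93 (others 12.13 to 12.17).

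Cyp8b1 was low in replicate 2 of phenobarbital at 28 days at 11.05 (others 12.31 to 12.69). Akr1d1 was low in replicate 3 of Co1 at 10.96 (others 11.71 to 11.80) and in replicate 3 of Co4 at 11.14 (others 11.26 to 11.30). Replicate 1 of corn oil was high in Baat at 11.10 (others 10.88 to 10.93) and in Slc27a5 at 13.78 (others 13.65 to 13.69). Replicate 2 of cyproterone acetate was high in Baat at 11.35 (others 10.92 to 11.00) and low in Nr0b2 at 7.87 (others 9.32 to 9.82). Nr1h4 was low in replicate 5 of the 28-day water group at 10.34 (others 10.74 to 10.81).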

How the results depend on the processing

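Of 2730 gene values computed under the alternatives, 2686 kept their side of the threshold, 24 no longer passed, 19 came to pass and 1 that passed had the opposite sign. That value was Cyp39a1 after piperonyl butoxide, -1.45 against the mean of the 5 CMC cohorts and 0.28 against its own cohort. With that common control the count of the 10 genes that passed was 3 for CITCO in C57BL mice (10.4% of all genes), 6 for piperonyl butoxide (26.6%), 5 for Wy-14643 (13.6%) and 3 for livers labelled methapyrilene (2785 of 18193 genes). In fits of the compared groups alone it was 2 after 28 days of phenobarbital (332 of 18193 genes). It was 0 for cyproterone acetate against 1,4-dichlorobenzene (239 of 18193 genes). For the hCAR/hPXR controls against Co4 it was also 0, where 14 to 33 genes passed over the settings tried. With only the 9679 genes whose mean was at least 6, it was 2 after cyproterone acetate, where 289 to 1429 genes passed over the settings tried. It was 0 for the hCAR/hPXR controls on the mean of a gene's probe sets, where 14 genes passed. The cause was not tested.

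Leaving out 1 liver at a time gave 1 to 4 of the 10 genes after Wy-14643 and 0 to 2 after cyproterone acetate. It gave 1 to 2 for cyproterone acetate against 1,4-dichlorobenzene and 0 to 1 for the hCAR/hPXR controls. Over all genes these fits gave 1192 to 2238 after Wy-14643 and 602 to 1063 after cyproterone acetate. They gave 605 to 950 for cyproterone acetate against 1,4-dichlorobenzene and 12 to 35 for the hCAR/hPXR controls. Of the 45 pairs of genes, 2 passed in control livers alone. Counts over all genes also moved by over 1.5 times: after Wy-14643 from 1936 to 792 in a fit of its groups alone and to 3029 when every probe set was tested, and after piperonyl butoxide from 147 to 10 and, with the common control, 4837. In fits of the groups alone the count went from 968 to 289 for cyproterone acetate, from 696 to 320 for 1,4-dichlorobenzene, from 748 to 239 between them, from 176 to 332 for 28 days of phenobarbital, and from 33 to 4 for livers labelled methapyrilene. With the common control it went from 4 to 1058 for livers labelled pioglitazone and from 1 to 1896 for CITCO in C57BL mice. With every probe set tested it went from 6045 to 10600 for the 5 cohorts, and on the mean of a gene's probe sets from 23 to 14 for the hCAR/hPXR controls.

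The replicate numbers did not pair the mice: same-numbered livers correlated between -0.32 and 0.22, and in 0 comparisons was every pair over 0.1. With the replicate block, none of the 140 values of the 10 genes moved across the threshold.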
